A study of Homo sapiens with 36 samples.

Results

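Neural patterning and proneural transcription factors were examined in cultured human neural stem cells (hNSC) in which MEIS1 or MEIS2 had been activated or knocked out. The members are a fixed list of 55 genes in 8 groups by the role each factor is known for. The rule names genes and uses no measured value, but the list was drawn up with earlier results of these data known. All 55 had a row in the table of 28516 genes, and they took 0.106% of all counts. Of these factors, 20 had a mean level of at least 1 CPM (counts scaled to the total of the library), 15 were lower but could be tested, and 20 had fewer than 10 counts over all 36 libraries and were not tested.

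Patterning factors are DNA-binding proteins that divide the early neural tube into regions. Forebrain factors such as SIX3, OTX2 and LHX2, midbrain and hindbrain factors such as EN1, EN2 and GBX2, dorsal factors such as PAX3, MSX1 and the ZIC family, and ventral factors such as NKX2-2 and OLIG2 each mark a stretch of the neural axis. Proneural factors such as NEUROG2 and ATOH1 carry a basic helix-loop-helix domain and start neuronal differentiation in progenitors. MEIS1 and MEIS2 are homeodomain proteins of the TALE class that bind DNA together with PBX and HOX proteins, and they act beside many of the listed factors in the developing eye, brain and limb.

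The cells are a commercial hNSC stock from Gibco, labelled as a cell line and grown in serum-free medium on Geltrex. Each of the 6 groups had 6 libraries of poly-A RNA, taken 48 h after lentiviral infection. MEIS1-OE and MEIS2-OE carried CRISPR activation (a dead Cas9 fused to VP64, a guide RNA with MS2 loops and the MPH activator) with a guide to the gene's promoter, and ctrl-OE carried the same vectors with a non-targeting guide. MEIS1-KO and MEIS2-KO carried lentiCRISPRv2 with active Cas9 and a 1:1 mixture of viruses with different guides to the gene, and ctrl-KO carried that vector with a non-targeting guide. The OE and KO arms thus differ in Cas9 form, vectors and virus volume as well as in their guides. Bulk knockout cultures hold edited and unedited cells together. The guide of ctrl-KO has no intended site. Cutting by Cas9 and loss of the MEIS gene therefore cannot be told apart in either knockout or in the contrasts. The sources name 6 samples per condition without saying how the cultures were kept apart, so the p-values measure the spread between these samples.

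Total counts per library ran from 15429985 to 22940493. The targeted genes followed the labels. MEIS1 had a mean of 310.2 CPM in MEIS1-OE against 17.8 in ctrl-OE, and 8.96 CPM in MEIS1-KO against 25.7 in ctrl-KO. MEIS2 had 824 CPM in MEIS2-OE against 22.6 in ctrl-OE, and 12.1 CPM in MEIS2-KO against 25.8 in ctrl-KO. Of 11 neural stem cell markers, 10 were at 1 CPM or more in every group and HES5 was below it. Of 9 neuron markers 5 (MAP2, TUBB3, SYT1, GAP43 and SNAP25) were at 1 CPM or more in every group, with MAP2 at a mean of 756 CPM in ctrl-KO, while DCX, STMN2, ELAVL4 and RBFOX3 were below it. Of 6 astrocyte markers GJA1, SLC1A3 and S100B were above 1 CPM in every group, with GJA1 at 254 CPM in ctrl-KO, and GFAP and ALDH1L1 were below it. POU5F1, NANOG and PTPRC were below 1 CPM in every group, whereas KDR, TEK, CDH5, COL1A1, COL1A2, LIN28A and DPPA4, which are markers of endothelium, mesenchyme and pluripotent cells, were above it in every group. In these bulk libraries, fewer cells that use a gene and less RNA of it per cell cannot be told apart.

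Some libraries stood apart from their group in the listed factors. In ctrl-OE replicate 6, 12 of the 20 factors at 1 CPM or more were the highest of the 6 libraries, and the median ratio to the other 5 libraries was 1.25. IRX1 was 2.42 times, POU3F3 2.39 times and NR2F1 2.00 times the median of the other 5 libraries there. In MEIS1-OE replicate 3, 8 factors were the highest of the group and 5 the lowest, among them POU3F3 at 0.396 and IRX1 at 0.603 times the median of the other 5 libraries. Each count of called factors was therefore also obtained without either library.

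**Figure D1:**
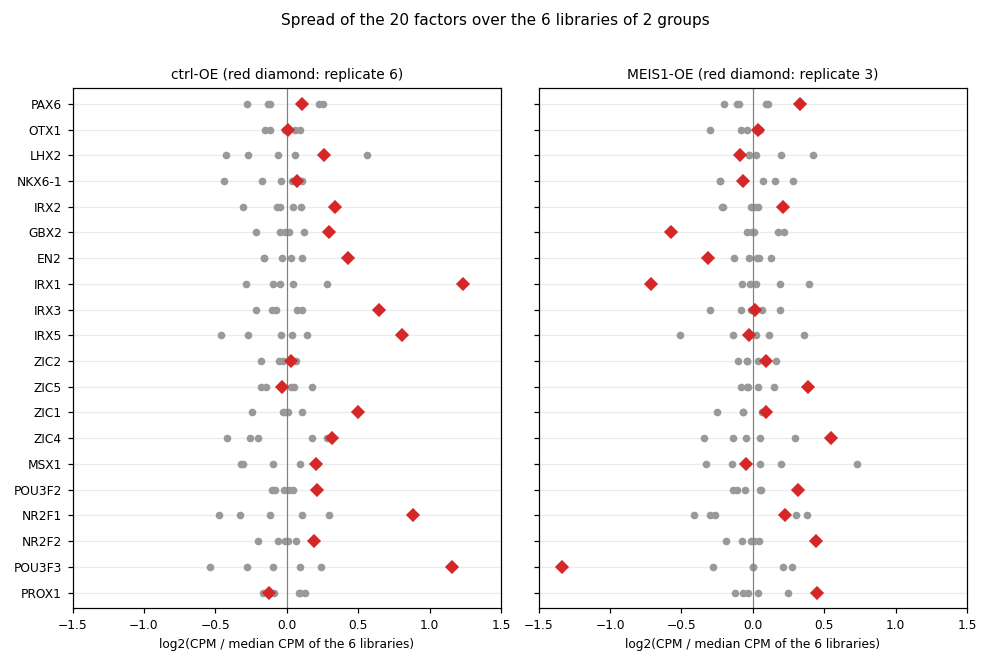
Level of the 20 factors at 1 CPM or more in each of the 6 libraries of ctrl-OE (left) and MEIS1-OE (right), as log2 of CPM over the median CPM of the group. Replicate 6 of ctrl-OE (red diamonds) lay highest for 12 factors, and replicate 3 of MEIS1-OE was highest for 8 and lowest for 5.

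The factors that were present belonged mainly to the midbrain and hindbrain, the dorsal neural tube, and the POU, nuclear receptor and PROX group. At 1 CPM or more were 6 of 8 midbrain, hindbrain and posterior diencephalon factors, 5 of 8 dorsal neural tube and roof plate factors, all 5 of the POU, nuclear receptor and PROX group, 3 of 8 anterior forebrain and eye field factors and 1 of 7 ventral and intermediate neural tube factors. None of the 6 dorsal telencephalon factors, 7 ventral telencephalon factors or 6 proneural factors reached 1 CPM. Genes are compared by CPM per kb of exon, since longer transcripts give more reads.

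POU3F2 (BRN2), a POU-domain factor of neural progenitors and upper-layer neurons, was the highest of the 55, with 73.0 ± 3.3 CPM per kb (SD, n = 6) in ctrl-KO and 39.0 ± 3.2 in ctrl-OE. NR2F1 (COUP-TFI), a nuclear receptor that sets up cortical areas, had 47.0 ± 1.9 CPM per kb in ctrl-KO and 16.0 ± 6.0 in ctrl-OE. NR2F2 (COUP-TFII), its paralog, had 19.9 ± 1.3 and 9.19 ± 0.82 CPM per kb. The order of these 3 factors was the same in both controls, and the gap from NR2F1 to NR2F2 was larger than the SD in ctrl-KO while in ctrl-OE the SD of NR2F1 nearly filled it.

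Among the midbrain and hindbrain factors, IRX2, an Iroquois homeodomain factor, had 52.9 ± 2.7 CPM per kb in ctrl-KO. GBX2, which marks the anterior hindbrain side of the midbrain-hindbrain boundary, had 35.9 ± 3.9 CPM per kb, and EN2, a marker of both sides of it, had 35.5 ± 4.5. GBX2 and EN2 did not differ beyond their spread. In ctrl-OE the order turned, with GBX2 at 29.5 ± 3.6, EN2 at 27.5 ± 4.4 and IRX2 at 20.3 ± 3.0 CPM per kb. EN1, the paralog of EN2, stood at 0.0761 ± 0.029 and LMX1B, a factor of midbrain dopamine neurons and of the isthmus, at 0.0117 ± 0.011 CPM per kb in ctrl-KO.

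ZIC2, a zinc finger factor of the dorsal neural tube, led its group with 46.7 ± 3.2 CPM per kb in ctrl-KO and 32.2 ± 2.0 in ctrl-OE. ZIC5 followed with 14.6 ± 1.3 and 9.93 ± 0.92, and ZIC1 with 8.25 ± 0.86 and 4.59 ± 0.84 CPM per kb. PAX3, a marker of dorsal progenitors and neural crest, had 0.0497 ± 0.022 CPM per kb in ctrl-KO, and MSX2 and LMX1A had no count in either control.

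PAX6, the eye and forebrain progenitor factor, had 1.80 ± 0.069 CPM per kb in ctrl-KO and 1.004 ± 0.15 in ctrl-OE. Its exons cover 20639 bases in the annotation, because many transcript models are merged, so this value understates it beside the other genes. In counts alone PAX6 had a median of 37.7 CPM in ctrl-KO. OTX1, a forebrain and midbrain homeodomain factor, had 1.45 ± 0.28 CPM per kb in ctrl-KO, and LHX2, a LIM homeodomain factor of the eye and cortex, 0.739 ± 0.15. OTX2, the paralog of OTX1, and SIX6 had no count in any of the 36 libraries.

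Telencephalic factors were low or without counts. EOMES (TBR2), of intermediate progenitors, had 0.0222 ± 0.020 CPM per kb in ctrl-KO and 94 counts over all 36 libraries, and TBR1, of deep-layer neurons, had 0.0036 ± 0.0043 CPM per kb and 32 counts. DLX1 and DLX2, of the ganglionic eminences, had 0.198 ± 0.066 and 0.0265 ± 0.019 CPM per kb in ctrl-KO, from 612 and 225 counts over all libraries. EMX1 and GSX1 had 4 counts each, and EMX2, GSX2 and NKX2-1 had none. NKX6-1, of ventral progenitors, was the only ventral or intermediate neural tube factor past 1 CPM, at 0.432 ± 0.13 CPM per kb in ctrl-KO, and OLIG2 and OLIG1 followed at 0.223 ± 0.049 and 0.188 ± 0.063. Among proneural factors NEUROG2 had 15 counts, NEUROD1 16, ATOH1 and PTF1A 4 each, NEUROD4 2 and NEUROG1 1 over all 36 libraries.

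In all, 6 factors (SIX6, OTX2, EMX2, GSX2, NKX2-1 and LMX1A) had no count in any library, which allows a level of up to 0.00413 CPM over the 36 libraries together (3 counts, counting error only). The other 14 factors below 10 counts were EMX1, LHX5, LHX9, GSX1, DLX5, DLX6, NKX2-2, DBX1, DBX2, MSX2, NEUROG1, NEUROD4, ATOH1 and PTF1A. The 15 tested factors below 1 CPM were SIX3, RAX, NR2E1, EOMES, TBR1, DLX1, DLX2, NKX6-2, OLIG1, OLIG2, EN1, LMX1B, PAX3, NEUROG2 and NEUROD1, with 11 to 641 counts each over all libraries.

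**Figure D2:**
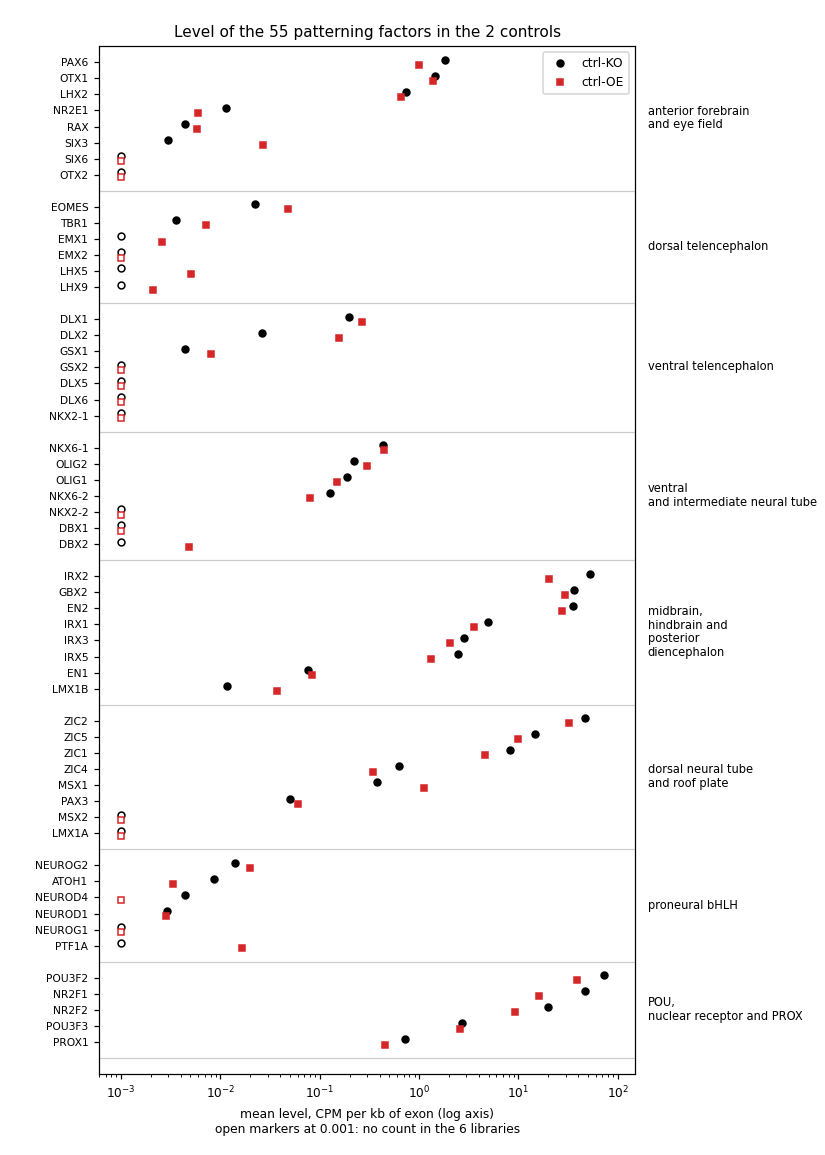
Mean level of each of the 55 factors in ctrl-KO (black circles) and ctrl-OE (red squares), in CPM per kb of exon on a log axis and grouped by role, with open markers at 0.001 for factors without a count in the 6 libraries. POU3F2 was highest in both controls, and the dorsal telencephalon and proneural factors all lie below 0.1 CPM per kb.

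Under MEIS1 activation, PROX1 rose, OTX1 fell and SIX3 rose, while the other 32 tested factors did not pass the threshold. That is 3 of 35, or 8.57%, beside 9.10% of all tested genes in the comparison of MEIS1-OE with ctrl-OE. The median log2 fold change was -0.13 over the 35 factors and -0.0013 over all tested genes. PROX1 lay wholly above and OTX1 wholly below the control libraries, beside 3.17% of all tested genes that lay wholly higher and 1.21% wholly lower. The question of this comparison is which genes respond to more MEIS1 in neural stem cells.

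PROX1, a homeodomain factor related to fly prospero that promotes exit from the cell cycle in progenitors, lies at chr1:214156524-214214853 (GRCh37, + strand). Its level in MEIS1-OE ran from 6.15 to 9.16 CPM with a median of 6.70, and in ctrl-OE from 3.59 to 4.40 with a median of 4.03. All 6 MEIS1-OE libraries lay above all ctrl-OE libraries. The mean was 79.1% higher, a log2 fold change of 0.84 ± 0.12 (SE; edgeR adjusted p = 1.26e-06). In MEIS2-OE PROX1 had a median of 4.15 CPM and a highest library of 5.43. The log2 fold change of PROX1 stayed between 0.74 and 0.88 over the alternatives run.

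OTX1 lies at chr2:63277192-63284971 (GRCh37, + strand). Its level in MEIS1-OE ran from 4.18 to 5.33 CPM with a median of 5.14, and in ctrl-OE from 6.08 to 7.20 with a median of 6.74, so that the groups did not overlap. The mean fell by 25.2%, a log2 fold change of -0.42 ± 0.11 (edgeR adjusted p = 0.00662). MEIS2-OE libraries lay between 4.43 and 6.48 CPM, with a log2 fold change of -0.25 ± 0.11 that did not pass (edgeR adjusted p = 0.498).

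The TGACAG core that MEIS proteins bind stands in the stretch before the OTX1 start site. The sequence is shown because OTX1 was called under MEIS1 activation, was well measured and held this core. The stretch before PROX1, the other well measured factor called there, was not searched. The stretch of 250 bases is GRCh38.p14 chr2:63050580-63050829 (+ strand, RefSeq), and the capitals mark the core, which lies on the minus strand and so reads CTGTCA, starting 95 bases before the start site.
OTX1: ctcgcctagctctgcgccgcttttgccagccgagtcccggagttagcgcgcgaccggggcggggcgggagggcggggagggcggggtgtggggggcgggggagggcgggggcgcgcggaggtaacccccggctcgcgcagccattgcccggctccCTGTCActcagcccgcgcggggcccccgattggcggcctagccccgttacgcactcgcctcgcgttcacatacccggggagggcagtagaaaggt
Both strands of the same stretch were searched in the 42 factors that the RefSeq promoter table holds, PROX1 not being among them. TGACAG stood in 7 of them (16.7%), namely DBX1, NEUROG2, OTX1, PAX6, SIX6, TBR1 and ZIC4, and in 15.6% of 27305 genes, so the share in the list was close to that of all genes. TGATTNAT, a core bound by HOX proteins with PBX or MEIS partners, stood in none of the 42 and in 3.06% of all genes. A match is a run of letters and not a bound site.

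SIX3, the forebrain and eye field factor (chr2:45168841-45173210, GRCh37, + strand), was near the limit of detection. It had 27 counts over the 6 MEIS1-OE libraries, 10 in ctrl-OE and 2 in MEIS2-OE. The level in MEIS1-OE ran from 0.0503 to 0.298 CPM with a median of 0.241, and in ctrl-OE from 0 to 0.166 with a median of 0.0680, so the groups overlapped in the lowest MEIS1-OE library. The log2 fold change was 1.46 ± 0.48 (edgeR adjusted p = 0.0462). The call was lost in 9 of 13 alternatives, among them leaving out replicate 1, 2, 4, 5 or 6 of every group or ctrl-OE replicate 6, with values from 0.86 to 2.06 and an adjusted p of up to 0.222. Nor did DESeq2, which gave SIX3 no adjusted p, or the stricter expression filter, which removed it, call SIX3.

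Neither of the libraries that stand apart made the PROX1 or OTX1 calls. Without MEIS1-OE replicate 3 the count was 5, with NR2F2 and ZIC5 added, and without ctrl-OE replicate 6 it was 3, with IRX1 in place of SIX3. Beside these changes, HES5 (on few counts), PROM1 and SOX1 of the 11 neural stem cell markers fell in MEIS1-OE. GAP43 and SYT1 of the 9 neuron markers rose. SLC1A3 of the astrocyte markers fell, and SNAI2 (neural crest or mesenchyme) and TYROBP (microglia) rose. The summed neural stem cell markers ran from 3796 to 4709 CPM against 3406 to 4386 in ctrl-OE. Most of that sum was VIM and NES, with means of 2276 and 1023 CPM in MEIS1-OE. The part of these markers in the result was not tested.

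**Figure D3:**
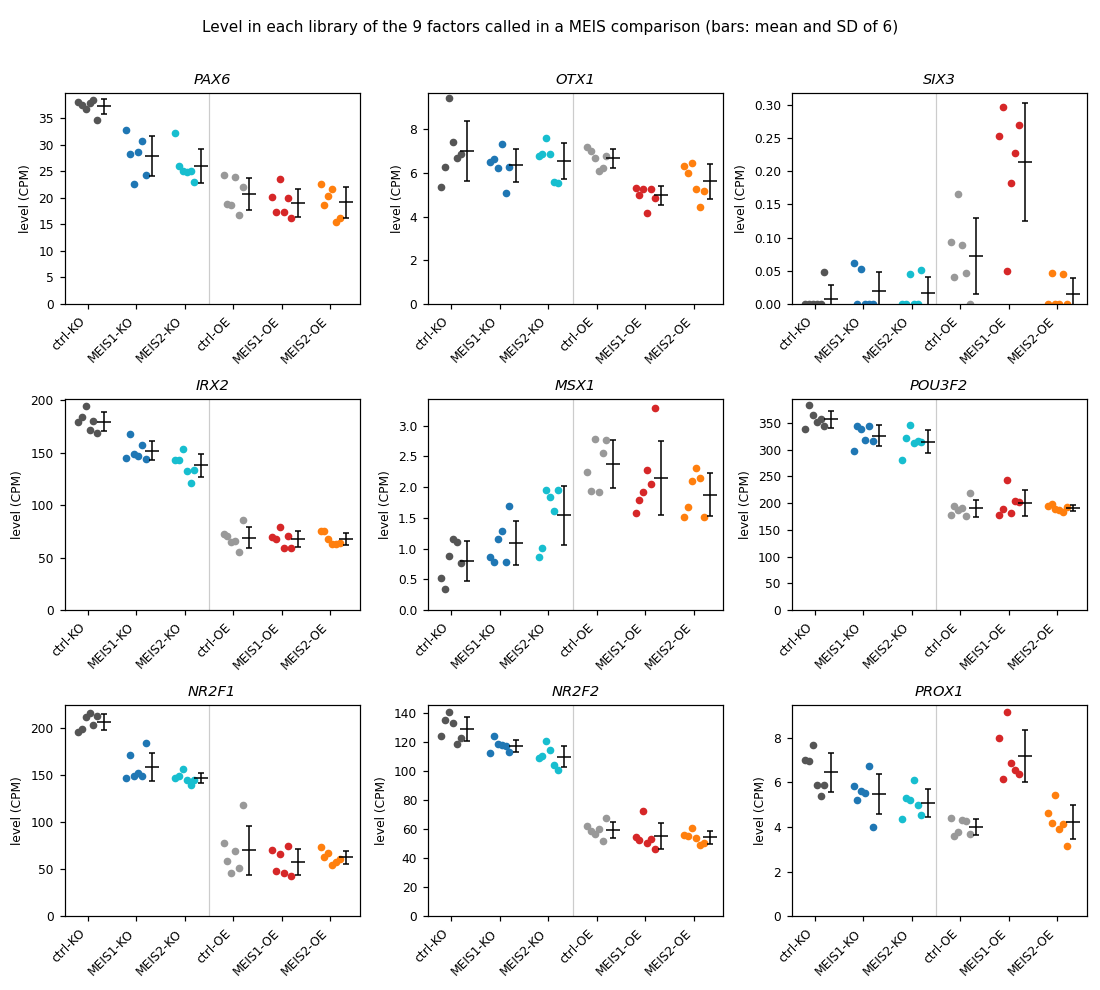
Level (CPM) in each library of the 9 factors called in a MEIS comparison, by group, with the mean and SD of 6 libraries beside the points. PROX1 in MEIS1-OE lies above ctrl-OE and MEIS2-OE, PAX6, IRX2 and NR2F1 in both knockouts lie below ctrl-KO, and MSX1 in MEIS2-KO overlaps ctrl-KO.

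MEIS2 activation moved none of the 35 tested factors past the threshold by edgeR, beside 1.35% of all tested genes in the comparison of MEIS2-OE with ctrl-OE. DESeq2 also gave 0, and 7 factors had an unadjusted p under 0.05. The fold changes were below 0 for 29 of 35 factors, beside 10544 of all 19689 tested genes, with a median of -0.21 against -0.01. At 1 CPM or more 16 of 20 factors were below 0, beside 7291 of 13464 genes. The control includes ctrl-OE replicate 6, the highest of its group for 12 of these 20 factors. Medians and signs were not redone without that library, here or for MEIS1-OE. ZIC1 had a log2 fold change of -0.27 ± 0.10 (edgeR adjusted p = 0.270) and EN2 of -0.29 ± 0.11 (edgeR adjusted p = 0.395). The 95% interval for PAX6 ran from -0.31 to 0.08 on the log2 scale.

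In MEIS1-KO, PAX6 was the 1 of 35 factors called (2.86%), beside 1.46% of all tested genes in the comparison with ctrl-KO. PAX6 lies at chr11:31806327-31839509 (GRCh37, - strand). Its level in MEIS1-KO ran from 22.6 to 32.8 CPM with a median of 28.4, and in ctrl-KO from 34.6 to 38.4 (median 37.7). No knockout library reached the lowest ctrl-KO library. The mean fell by 25.1%, a log2 fold change of -0.42 ± 0.10 (edgeR adjusted p = 0.0178). The call was lost without replicate 2, 3, 4 or 6 of every group, where the adjusted p reached 0.115 and the log2 fold change stayed between -0.46 and -0.37.

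The other factors without overlap between MEIS1-KO and ctrl-KO were IRX2 and NR2F1, so that 3 of 35 lay wholly lower, beside 0.625% of all tested genes. IRX2 had a log2 fold change of -0.24 ± 0.07 (edgeR adjusted p = 0.0884) and NR2F1 of -0.38 ± 0.14 (edgeR adjusted p = 0.193). With the 2 groups compared alone in the fit, both passed and the count was 3, and with the fold threshold it was 0, beside 0.290% of all tested genes. Without ctrl-OE replicate 6 IRX2 passed and the count was 2.

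In MEIS2-KO 6 of the 35 tested factors were called (17.1%), beside 10.0% of all tested genes in the comparison with ctrl-KO. All 6 were among the 20 at 1 CPM or more, and of all genes at that level 13.9% were called. PAX6, NR2F1, IRX2, NR2F2 and POU3F2 fell, and MSX1 rose. With a fold threshold of 0.58 on the log2 scale added, MSX1 was the 1 factor called, beside 1.58% of all tested genes.

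PAX6 in MEIS2-KO ran from 23.05 to 32.3 CPM with a median of 25.1, below every ctrl-KO library. The mean fell by 29.98%, a log2 fold change of -0.52 ± 0.10 (edgeR adjusted p = 0.000686). Replicate 1 was the highest library by a wide gap, the others lying between 23.05 and 26.0 CPM. ELP4, whose gene overlaps PAX6 on the other strand, had a log2 fold change of -0.12 ± 0.07 (edgeR adjusted p = 0.295).

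IRX2 (chr5:2745959-2751791, GRCh37, - strand) ran from 121 to 154 CPM in MEIS2-KO with a median of 138, and from 169 to 194 in ctrl-KO (median 179.7). The groups did not overlap. The log2 fold change was -0.38 ± 0.07 (edgeR adjusted p = 0.000687). PAX6, IRX2 and MSX1 kept their calls in MEIS2-KO under the 15 alternatives other than the fold threshold.

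NR2F1 (chr5:92918928-92930317, GRCh37, + strand) ran from 139 to 156 CPM in MEIS2-KO with a median of 146, and from 195 to 215 in ctrl-KO with a median of 207. No library overlapped. The log2 fold change of NR2F1 was -0.49 ± 0.14 (edgeR adjusted p = 0.0166). The call was lost without replicate 2, 4 or 5 of every group (adjusted p up to 0.0725). PAX6, IRX2 and NR2F1 were the 3 of 35 factors that lay wholly below ctrl-KO, beside 4.05% of all tested genes.

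A MEIS2 knockout guide has a partly matching site in the gene NR2F1-AS1, which runs beside NR2F1 on the other strand, and both are shown because NR2F1 fell in MEIS2-KO. The guide's target is GRCh37 chr15:37376084-37376106 (+ strand), in a coding exon of MEIS2. The site is GRCh37 chr5:92750397-92750419 (+ strand), in an intron of NR2F1-AS1 and 168509 bases before the start of NR2F1. The last 3 bases of each are the PAM, the capitals in the site mark its 4 mismatches, and positions count from 1 at the guide's 5′ end (G6C, A7C, T10C and G14A, guide base first).
MEIS2 guide target: gttctgatgtcaggataccaagg
NR2F1-AS1 site: gttctCCtgCcagAataccatgg
NR2F1-AS1 had a log2 fold change of -0.38 ± 0.11 in MEIS2-KO (edgeR adjusted p = 0.0164) and of -0.31 ± 0.11 in MEIS1-KO (edgeR adjusted p = 0.149), whose guides are others. In MEIS1-KO NR2F1 ran from 147 to 183 CPM, below every ctrl-KO library too. The paper lists the site among potential off-target sites of its knockout guides. NR2F1-AS1 is not among the off-target genes it names as differentially expressed against ctrl-KO, where it tested with DESeq2. Cutting at the site was not measured, and whether strand was used in counting is not given in the sources used here, so reads of NR2F1 and NR2F1-AS1 where they overlap cannot be told apart.

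NR2F2 (chr15:96869167-96883492, GRCh37, + strand) ran from 101 to 121 CPM in MEIS2-KO with a median of 109.9, and from 119 to 141 in ctrl-KO with a median of 129. A single knockout library lay inside the control range. The log2 fold change of NR2F2 was -0.23 ± 0.07 (edgeR adjusted p = 0.0281), and the call was lost without replicate 1, 2, 4 or 5 of every group (adjusted p up to 0.114). NR2F2-AS1, on the other strand, had a log2 fold change of -0.55 ± 0.17 (edgeR adjusted p = 0.0281).

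POU3F2 (chr6:99282450-99287334, GRCh37, + strand) ran from 281 to 346 CPM in MEIS2-KO with a median of 314, and from 339 to 384 in ctrl-KO with a median of 354. A single knockout library lay inside the control range. The fall was the smallest of the 5, with a log2 fold change of -0.18 ± 0.06 (edgeR adjusted p = 0.0391). It was not called with size factors in place of TMM, nor without replicate 1, 2, 4, 5 or 6 of every group, and the adjusted p reached 0.145.

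MSX1 (chr4:4861392-4865663, GRCh37, + strand), a homeodomain factor of the roof plate and neural crest, was the factor that rose. Its level in MEIS2-KO ran from 0.871 to 1.95 CPM with a median of 1.73, and in ctrl-KO from 0.337 to 1.15 (median 0.828). The groups overlapped, with 4 of 6 knockout libraries above all ctrl-KO libraries. MSX1 had 187 counts in MEIS2-KO and 91 in ctrl-KO over 6 libraries each, and the log2 fold change was 0.96 ± 0.25 (edgeR adjusted p = 0.0100). The other dorsal factors did not pass, and ZIC2, the best measured of them, had a log2 fold change of 0.03 ± 0.06.

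Markers of cell types moved in the same libraries, and PAX6 is both such a marker and a listed factor. In MEIS2-KO, 6 of 11 neural stem cell markers fell (CDH2, FABP7, HES5, PAX6, PROM1 and SOX1) and VIM rose. Of all tested genes 10.0% were called there in either direction. The sum of the 11 was higher, at 5679 to 6762 CPM in MEIS2-KO against 5223 to 5701 in ctrl-KO. Most of it was VIM and NES, with means of 3065 and 1716 CPM in MEIS2-KO. COL1A1, COL1A2 and SNAI2 of 9 neural crest or mesenchyme markers rose in MEIS2-KO, while PRRX1, DCN, FOXD3 and TFAP2A stayed under 1 CPM. The sum of all 9 ran from 238 to 325 CPM against 181 to 235 in ctrl-KO. CDH5 and KDR of 4 endothelium markers rose in MEIS2-KO. The sum of all 4, mostly KDR, was 203 to 251 CPM against 169 to 184 in ctrl-KO. GAP43, CSPG4 and TYROBP also rose there, and DCX and SLC1A3 fell. In MEIS1-KO VIM and COL1A1 rose and PAX6 fell. The part of these markers in the changes of the listed factors was not tested.

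**Figure D4:**
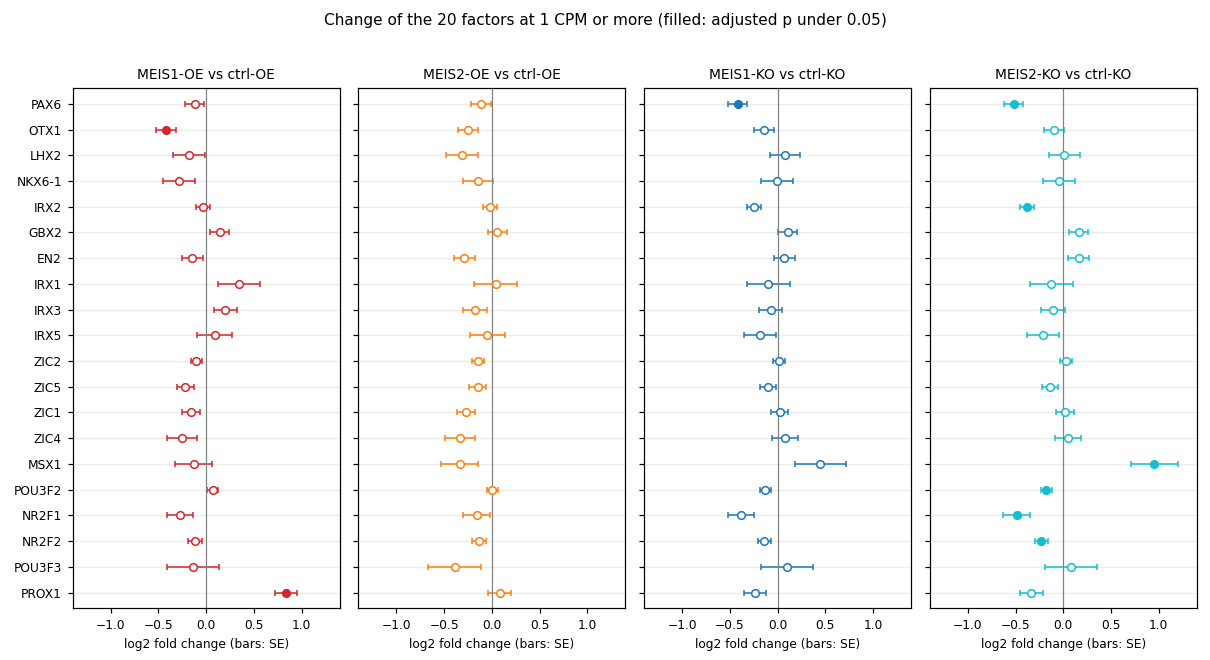
Log2 fold change with SE of the 20 factors at 1 CPM or more in the 4 comparisons with their own control, ordered by role, with filled points for an adjusted p under 0.05. PROX1 and OTX1 are filled in MEIS1-OE, none in MEIS2-OE, PAX6 in MEIS1-KO, and PAX6, IRX2, MSX1, POU3F2, NR2F1 and NR2F2 in MEIS2-KO.

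The contrasts subtract the effect of knockout from that of activation and thus ask which genes follow the dose of a MEIS gene. In the MEIS1 contrast PROX1 was the 1 of 35 factors called (2.86%), beside 3.48% of all tested genes, with a difference of 1.07 ± 0.17 on the log2 scale (edgeR adjusted p = 2.91e-05). Its effects were 0.84 ± 0.12 in activation and -0.23 ± 0.12 in knockout, the latter not called (edgeR adjusted p = 0.448). The median of PROX1 was 6.43 CPM in ctrl-KO, 5.55 in MEIS1-KO and 5.10 in MEIS2-KO. In MEIS2-KO it was called with the replicate block, with the compared groups alone and without MEIS1-OE replicate 3. PROX1 was also called lower in ctrl-OE than in ctrl-KO (log2 fold change from -0.75 to -0.61 over the alternatives). Its median in MEIS1-OE, 6.70 CPM, was thus near that of ctrl-KO. The PROX1 contrast was called under the 15 alternatives other than the fold threshold, between 0.93 and 1.24.

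In the MEIS2 contrast MSX1 was the 1 of 35 factors called, beside 2.57% of all tested genes, with a difference of -1.29 ± 0.31 on the log2 scale (edgeR adjusted p = 0.0151). Its effects were -0.34 ± 0.19 in activation, which was not called, and 0.96 ± 0.25 in knockout. The MSX1 call was lost without replicate 3 or 6 of every group (adjusted p up to 0.0688), with differences from -1.49 to -1.11. IRX2 had 0.36 ± 0.11 (edgeR adjusted p = 0.0542) and was called under DESeq2 and without either library that stands apart. PAX6, lower in both knockouts, had contrasts of 0.30 ± 0.14 for MEIS1 (edgeR adjusted p = 0.352) and 0.40 ± 0.14 for MEIS2 (edgeR adjusted p = 0.130).

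Compared with each other, MEIS1-OE and MEIS2-OE differed in 2 of 35 factors (5.71%), beside 7.75% of all tested genes. PROX1 was higher in MEIS1-OE by 0.76 ± 0.12 on the log2 scale (edgeR adjusted p = 9.49e-06), with all 6 libraries above all of MEIS2-OE. SIX3 was higher by 3.31 ± 0.65 (edgeR adjusted p = 0.000368), from 27 counts against 2. Over the alternatives that SIX3 difference ran from 1.45 to 3.77. These 2 factors were also the 2 that lay wholly higher, beside 2.77% of all tested genes. For SIX3 the lowest MEIS1-OE library (0.0503 CPM) and the highest MEIS2-OE library (0.0465 CPM) held 1 count each. Only the scaling to library size set those libraries apart. For OTX1, which was called in MEIS1-OE alone, the difference between the activations was -0.17 ± 0.11 and did not pass (edgeR adjusted p = 0.437).

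No factor differed between MEIS1-KO and MEIS2-KO by edgeR or DESeq2, beside 0.0152% of all tested genes, and 2 had an unadjusted p under 0.05. The difference of PAX6 was 0.10 with a 95% interval from -0.10 to 0.29 on the log2 scale, that of NR2F1 0.11 with an interval from -0.16 to 0.38, and that of IRX2 0.14 with an interval from -0.01 to 0.28. MSX1 differed by -0.51 ± 0.23 (edgeR adjusted p = 0.855). The knockouts share ctrl-KO, so their separate changes are not independent of each other.

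The comparison with the most factors called was that of the controls. Of the 35 tested factors 18 were called in ctrl-OE against ctrl-KO (51.4%), and 51.4% of all tested genes were called as well. Of these factors 14 were lower and 4 higher in ctrl-OE, beside 23.9% and 27.5% of all tested genes. Among factors at 1 CPM or more 15 of 20 were called, 14 of them lower, where 62.8% of all 13464 genes at that level were called and 4235 of them were lower. The median log2 fold change of the 20 was -0.55 against 0.01 over all genes at that level. By role, 4 of 5 factors of the POU, nuclear receptor and PROX group, 4 of 6 tested dorsal factors and 5 of 8 midbrain and hindbrain factors were lower in ctrl-OE.

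NR2F1 had a median of 63.7 CPM in ctrl-OE (45.9 to 118) against 207 in ctrl-KO, a log2 fold change of -1.56 ± 0.14 (edgeR adjusted p = 3.88e-12). IRX2 had a median of 67.9 CPM in ctrl-OE (54.96 to 85.8), a log2 fold change of -1.38 ± 0.08. NR2F2 changed by -1.12 ± 0.07, POU3F2 by -0.91 ± 0.06, IRX5 by -0.90 ± 0.17, ZIC4 by -0.88 ± 0.15 and PAX6 and ZIC1 by -0.85 each on the log2 scale. For 10 of the 35 factors all ctrl-OE libraries lay below all ctrl-KO libraries, beside 16.0% of all tested genes. ZIC1 was among them, at 25.2 to 42.1 CPM in ctrl-OE and 50.1 to 65.7 in ctrl-KO.

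MSX1 went the other way, at 1.92 to 2.78 CPM in ctrl-OE against 0.337 to 1.15 in ctrl-KO, a log2 fold change of 1.55 ± 0.23 (edgeR adjusted p = 3.39e-07). DLX2 rose from 9 to 63 counts over 6 libraries, a log2 fold change of 2.45 ± 0.49. LMX1B (8 against 32 counts) and SIX3 (1 against 10 counts) were also higher in ctrl-OE, on few counts. OTX1, LHX2, NKX6-1 and POU3F3 were within 0.2 of 0 on the log2 scale and were not called. The controls differ in vectors, Cas9 form and virus volume, and these cannot be told apart here.

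Markers of several cell types moved with that comparison. In ctrl-OE 9 of 11 neural stem cell markers, PAX6 among them, were lower than in ctrl-KO, beside 23.9% of all tested genes. The sum of the 11, mostly VIM and NES, was 3406 to 4386 CPM against 5223 to 5701. All 4 endothelium markers were lower too. The summed neuron markers ran from 422 to 602 CPM in ctrl-OE against 984 to 1029 in ctrl-KO, with DCX, MAP2, SNAP25 and SYT1 lower. The summed astrocyte markers ran from 112 to 136 CPM against 270.2 to 297, with AQP4, GJA1, S100B and SLC1A3 lower and GFAP higher. MAP2 made most of the neuron sum (means of 265 and 756 CPM) and GJA1 most of the astrocyte sum (108 and 254 CPM). PDGFRA, COL1A2, LUM, SNAI2 and LIN28A were also lower, and CSPG4, SOX10, COL1A1, POU5F1, AIF1 and TYROBP higher. The part of these markers in the result was not tested. Without ctrl-OE replicate 6 the count of factors was 20, with IRX1 and NKX6-2 added, and the log2 fold change of NR2F1 lay between -1.77 and -1.45 over the alternatives.

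**Figure D5:**
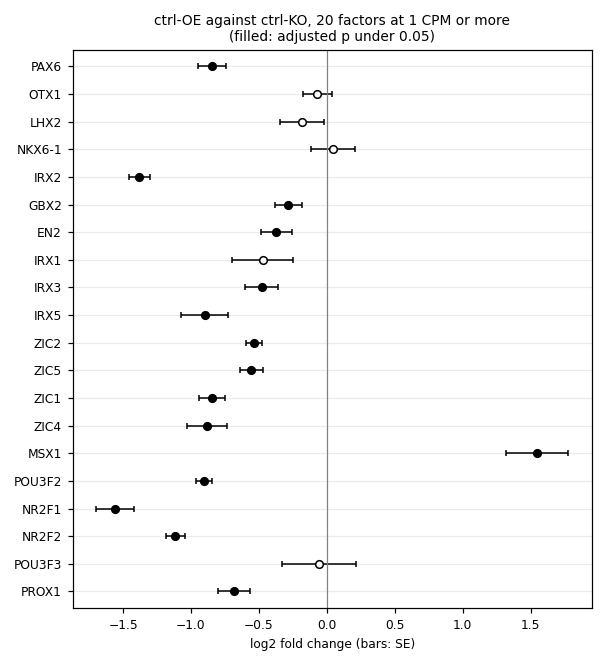
Log2 fold change with SE of the 20 factors at 1 CPM or more in ctrl-OE against ctrl-KO, ordered by role, with filled points for an adjusted p under 0.05. Of the 15 filled points, 14 lie below 0 and MSX1 lies at 1.55.

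Several listed genes are neighbours on a chromosome. ZIC2 and ZIC5, 10016 bases apart on chromosome 13, had log2 fold changes of -0.54 and -0.56 between the controls, and ZIC1 and ZIC4, which overlap on chromosome 3, -0.85 and -0.88. IRX2 and IRX1, 844154 bases apart on chromosome 5, had -1.38 and -0.47, the latter not called. DLX1 and DLX2, 9760 bases apart on chromosome 2, had 0.40 and 2.45, the former not called. Levels of neighbours differed widely, IRX2 having 52.9 and IRX1 4.91 CPM per kb in ctrl-KO. Reads where ZIC1 and ZIC4 overlap cannot be told apart, and NKX6-2, with 151 counts, lies against INPP5A, with 30039.

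The HOX cluster genes, which pattern the hindbrain and spinal cord, were listed with 39 genes in the table. None reached 1 CPM, the highest being HOXB2 with a mean of 0.682 CPM, and 10 had enough counts to be tested. Of these 10, 0 were called by edgeR in the 4 comparisons with their own control and in both contrasts, where between 1.35% and 10.0% of all tested genes were called. In each knockout 1 of the 10 had an unadjusted p under 0.05, in MEIS1-KO HOXB2 with -0.77 ± 0.24 on the log2 scale (edgeR adjusted p = 0.102). HOXC8 and HOXC9 were higher in ctrl-OE than in ctrl-KO.

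A list of 73 other regional factors had 16 at 1 CPM or more and 56 tested. Of the 56, 3 were called in MEIS1-OE, 4 in MEIS2-OE, 0 in MEIS1-KO (11 with an unadjusted p under 0.05) and 7 in MEIS2-KO by edgeR. These are 5.36%, 7.14%, 0% and 12.5%, beside 9.10%, 1.35%, 1.46% and 10.0% of all tested genes. PROX2, the paralog of PROX1, had 1.09 to 1.76 CPM in MEIS1-OE against 0.234 to 0.671 in ctrl-OE, a log2 fold change of 1.69 ± 0.30 (edgeR adjusted p = 0.000136). HEY1, a Notch effector, had 2.14 to 2.503 CPM in MEIS2-OE against 0.703 to 1.09 in ctrl-OE, a log2 fold change of 1.32 ± 0.15 (edgeR adjusted p = 6.21e-08). HES5, another Notch effector, had log2 fold changes of -2.96 ± 0.68 in MEIS1-OE (edgeR adjusted p = 0.00236) and -2.79 ± 0.66 in MEIS2-OE (edgeR adjusted p = 0.0153). It was near the limit of detection, at 0.0465 to 1.64 CPM in ctrl-OE. HES5 had 72 counts over the 6 ctrl-OE libraries, 35 of them in 1 library. It had 8 counts in MEIS1-OE and 9 in MEIS2-OE, and both fold changes use that control library.

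EGR2, a hindbrain segment factor, had a log2 fold change of -0.89 ± 0.24 in MEIS2-KO (edgeR adjusted p = 0.0126). In MEIS1-KO it had -0.82 ± 0.24, which did not pass (edgeR adjusted p = 0.0717). Between the activations PROX2 was higher in MEIS1-OE by 2.60 ± 0.35 and HEY1 had a difference of -0.91 ± 0.14, both called.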

How the data were processed

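RNA-seq of 36 hNSC libraries was analysed from the raw read counts per gene that the authors deposited, with no normalization. The design text names STAR 2.4.2a on hg19 and HTSeq 0.6.0, whereas the submitters' processing notes list Trimmomatic 0.39 and STAR 2.7.0a. The annotation and the strand setting of the counting are not given in the sources used here. Depth, with a median of 20324720 counts per library, limits factors of few counts.

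Genes with at least 10 counts over all libraries were tested (19689), in one edgeR 4.0.16 fit of 6 groups (R 4.3.3, TMM, quasi-likelihood F test, two-sided, prior count 0.125), with p-values adjusted by Benjamini-Hochberg over all tested genes and calls at an adjusted p under 0.05. SE is the log2 fold change over the square root of F, and 95% intervals are 1.96 SE either side. CPM are after TMM. Exon lengths come from GENCODE on GRCh37. The fit was tested on simulated data with known changes. Alternatives were size factors, other filters, prior count 2, a replicate block, the compared groups alone, leaving out each replicate, DESeq2 1.42.0 and a fold threshold, and, chosen after seeing the data, leaving out ctrl-OE replicate 6 or MEIS1-OE replicate 3.

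The members and lists were chosen with earlier results of these data known. Full values are given for factors called against their own control or in a contrast, levels for the 3 highest per kb of each role (as counts for the proneural factors, EMX1 and GSX1), and at most the 3 genes of smallest p in each other list and comparison. EN1, LMX1B and PAX3 have levels outside that rule, chosen after their values were seen. Other genes with values are overlapping or neighbouring genes and markers. Some results among the other regional factors and markers are not reported here.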

Additional observations from a re-analysis of the deposited data

Results flagged for a closer look

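In the 120 sets of 6 libraries (20 factors in 6 groups), 9 held a library far from the other 5, or 7.5%, where chance gives about 1 in 20. Of these, 4 were high values in ctrl-OE replicate 6, with IRX1 at 14.2 CPM (others 4.96 to 7.35), IRX3 at 8.72, IRX5 at 6.19 and POU3F3 at 24.0 CPM (others 7.42 to 12.7). The others were PAX6 at 32.3 CPM in MEIS2-KO replicate 1, NKX6-1 at 2.25 CPM in MEIS2-OE replicate 6, IRX1 at 7.65 CPM in ctrl-KO replicate 2, IRX3 at 6.49 CPM in MEIS2-KO replicate 2 and NR2F2 at 72.2 CPM in MEIS1-OE replicate 3.

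Effects that differed between groups by their own test, on the log2 scale, were those of PROX1, SIX3 and MSX1. PROX1 differed by 0.76 between MEIS1-OE and MEIS2-OE and by 1.07 between MEIS1 activation and knockout. SIX3 differed by 3.31 between MEIS1-OE and MEIS2-OE, from 27 counts against 2. MSX1 differed by -1.29 between MEIS2 activation and knockout.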

How the results depend on the processing

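Of 32 calls of single factors, 22 were kept under every alternative run for them other than the fold threshold, which is counted apart here, 36 of 475 checks lost a call, and 0 reversed in direction; SIX3 and other factors of few counts had fewer alternatives, since a filter removed them. The counts of called factors moved by over 1.5 times in these cases. In MEIS1-KO 1 became 3 with the compared groups alone and 0 with the fold threshold. In MEIS2-KO 6 became 1 with the fold threshold. In the MEIS2 contrast 1 became 2 with edgeR's expression filter, the compared groups alone or DESeq2. Leaving out a replicate, from every group or from 1 group, gave 2 to 5 for MEIS1-OE (3 with all), 0 to 2 for MEIS1-KO, 3 to 7 for MEIS2-KO, 1 to 3 for the MEIS1 contrast and 0 to 3 for the MEIS2 contrast. MEIS2-OE against ctrl-OE and the knockouts against each other gave 0 in every alternative. Without ctrl-OE replicate 6 the count was 2 for MEIS1-KO and 3 for the MEIS2 contrast, and without MEIS1-OE replicate 3 it was 5 for MEIS1-OE and 2 for the MEIS2 contrast. Apart from the fewer samples, the cause was not tested. The labels number replicates 1 to 6 in every group. Same-numbered libraries of different groups deviated together weakly at most (mean correlation 0.0361, 16 of 90 pairs above 0.1). Pairs with different numbers had a mean correlation of -0.00732, with 51 of 450 above 0.1. With the replicate number as a block the counts were 2 for MEIS1-KO, 8 for MEIS2-KO, 3 for MEIS1-OE, 19 for the controls and 3 for the MEIS2 contrast. Depth sets what can be seen, since 3 counts are 0.131 to 0.194 CPM in 1 library.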
